A study of Mus musculus with 35 samples.

Results

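The mammalian mitochondrial ribosomal proteins, the nuclear-encoded proteins of the ribosome inside mitochondria, were followed as 77 genes of 19938 named on the array. They were taken by symbol: the single platform symbol had to begin with Mrpl (large subunit) or Mrps (small subunit) followed by a number, pseudogenes were left out, and a gene with several transcript clusters was represented by the cluster with the highest mean. The rule gave 48 large subunit and 29 small subunit genes by symbol and used no measured difference. In counts and medians below, large and small subunit refer to the symbol alone. The place of each protein in the ribosome was not checked. A further cluster that names both Ccdc142 and Mrpl53 has no single gene and was left out. Of the 77 genes, 8 had 2 clusters. Mrps36 was kept by its symbol, although its protein is known as a subunit of the oxoglutarate dehydrogenase complex.

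The mitochondrial ribosome translates the few messages of the mitochondrial genome, all of which encode subunits of the respiratory chain and the ATP synthase, while its own proteins are made in the cytosol and imported. Many of them have counterparts in bacterial ribosomes and others occur only in mitochondria. MYCL, a member of the MYC family, pairs with MAX and binds E-box DNA, and MXD1 competes for MAX and represses. MYC proteins are known for driving genes of ribosome production and mitochondrial function in growing cells.

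The study measured RNA of splenic type 1 conventional dendritic cells (cDC1), the dendritic cells that cross-present antigen to CD8 T cells, sorted from mice by flow cytometry. Its title concerns how MYCL and MXD1 bear on the fitness of these cells. The 35 arrays form 4 sets. Set 1 compared 4 MyclGFP/GFP arrays, in which both Mycl alleles are GFP alleles, with 5 heterozygous MyclGFP/+ arrays at rest. Set 2 compared 5 MyclGFP/GFP with 5 Mycl+/+ arrays at rest. Set 3 compared the same genotypes, 5 arrays each, 5 h after 100 µg of poly IC, an RNA duplex made to resemble viral RNA, which induces interferon. The Mxd1 set compared 3 Mxd1-/- with 3 Mxd1+/+ arrays 18 h after 100 µg of poly IC. The controls of set 1 carry 1 GFP allele themselves, so that set compares 0 with 1 intact copy. No label gives the age of the mice. RNA came from few cells and was amplified, and values are log2 after normalization, so a difference is relative to the other transcripts of a cell preparation and less RNA per cell cannot be told apart from fewer cells. The labels call the arrays biological replicates without naming mice, so the p-values measure the spread between arrays.

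Some promoter sequences are shown because MYC-family factors bind the E-box CACGTG, and because Mrpl17, which fell in set 2, has a start-site entry. RefSeq promoters on GRCm38.p6 (250 bases before to 50 after the start) were matched for 68 of the 77 genes. The 250 bases before the start are printed 5′ to 3′ on the gene's own strand. Capitals mark the E-box CACGTG, the NRF1 core TGCGCA, the ETS core CCGGAAG and the YY1 core AAGATGG, each on either strand.
Mrpl17 (chr7:105811088-105811337, minus strand): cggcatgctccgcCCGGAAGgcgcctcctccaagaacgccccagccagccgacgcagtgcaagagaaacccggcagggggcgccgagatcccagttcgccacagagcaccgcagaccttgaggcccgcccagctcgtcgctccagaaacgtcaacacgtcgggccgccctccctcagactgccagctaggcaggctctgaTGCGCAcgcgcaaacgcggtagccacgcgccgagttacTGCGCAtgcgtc
Mrps18c (chr5:100798509-100798758, plus strand): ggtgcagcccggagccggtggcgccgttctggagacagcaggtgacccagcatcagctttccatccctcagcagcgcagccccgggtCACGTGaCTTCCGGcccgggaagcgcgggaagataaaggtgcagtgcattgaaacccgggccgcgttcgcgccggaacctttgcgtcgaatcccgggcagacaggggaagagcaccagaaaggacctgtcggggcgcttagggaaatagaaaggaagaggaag
Mrpl36 (chr13:73330759-73331008, plus strand): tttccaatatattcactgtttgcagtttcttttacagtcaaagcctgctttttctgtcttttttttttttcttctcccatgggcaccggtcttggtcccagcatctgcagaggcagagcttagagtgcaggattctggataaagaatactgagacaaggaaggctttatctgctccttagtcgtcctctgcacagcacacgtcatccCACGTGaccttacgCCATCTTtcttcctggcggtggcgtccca
Mrpl20 (chr4:155802628-155802877, plus strand): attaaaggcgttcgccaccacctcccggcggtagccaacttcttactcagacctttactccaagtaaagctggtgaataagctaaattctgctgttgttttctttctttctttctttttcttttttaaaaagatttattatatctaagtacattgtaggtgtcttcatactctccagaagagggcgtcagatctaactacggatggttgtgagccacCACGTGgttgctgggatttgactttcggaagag
The Mrpl17 stretch holds the NRF1 core at 2 places and 1 ETS core, and no CACGTG. The other stretches each hold 1 CACGTG, whose first base lies 163 bases before the start in Mrps18c, 43 in Mrpl36 and 33 in Mrpl20.

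Shares are of genes, and a gene counted when any of its start-site entries held the motif. An E-box was found in 5 of 68 mitochondrial ribosomal protein genes (7.4%), namely Mrpl2, Mrpl20, Mrpl36, Mrpl37 and Mrps18c. It was in 10.9% of the genes tested in set 2 that had a promoter and in 8.1% of all 27025 genes with one. The NRF1 core, the motif of a factor known for nuclear-encoded mitochondrial genes, was in 30.9% against 14.4% of tested genes and 8.8% of all genes with a promoter. The ETS core, bound by factors such as GABPA, was in 36.8% against 17.7% and 9.9%, and the YY1 core in 19.1% against 7.9% and 7.3%. In the 68 genes no match shared bases with a match of another motif (0 genes). These are matches of letters in 300 bases and not binding sites. In set 2 the median log2 difference was -0.06 for the 5 genes with an E-box and -0.02 for the 63 without one. In set 1 these medians were -0.08 and -0.09. In set 2 the 25 genes with an ETS core had a median log2 difference of -0.06 and the 43 without one 0.02, and in set 1 these were -0.08 and -0.09. The 21 genes with an NRF1 core had -0.06 and the 47 without one -0.02 in set 2, and -0.08 and -0.09 in set 1. The 13 genes with a YY1 core had 0.02 and the 55 without one -0.04 in set 2, and -0.0855 and -0.0846 in set 1. No test was run on these medians.

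The cells carried the markers of cDC1. The mean of the 12 cDC1 markers was 9.65 to 11.04 on the log2 scale over the arrays. In set 3 the mean of 5 neutrophil markers was 5.35 to 6.66 on wild-type and 5.49 to 7.09 on knockout arrays. The lists are read by different probes, so their levels are not compared with one another. In MyclGFP/GFP arrays Mycl fell by 2.88 in set 1 (SE 0.08, limma adjusted p 1.3e-08) and fell by 4.03 in set 2 (SE 0.07, adjusted p 1.07e-14) on the log2 scale. In set 3 knockout array 3 had Mycl at 8.87 and the other 4 knockout arrays had 5.52 to 6.14, against 9.02 to 9.81 in wild-type arrays. For most results of set 3, values without that library labelled knockout stand beside those with it. Wild-type arrays 1 and 4 of set 3 also stood apart: the mean of 11 interferon-induced genes was 7.48 and 8.55, against 10.65 to 10.94 in the other 3. In the Mxd1 set the Mxd1 transcript was 10.51 ± 0.12 (SD, n = 3) in arrays labelled knockout and 10.82 ± 0.20 (SD, n = 3) in wild type (difference -0.31, SE 0.11, adjusted p 0.26), so the transcript level did not separate the genotypes and the groups are named as labelled. Array medians lie at different levels in the 4 sets, so levels are compared only within a set.

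All 77 genes passed the filter on low values in every comparison. The mean of the 48 large subunit genes per array varied within groups by an SD of 0.04 (set 2 wild type) to 0.18 log2 (set 3 wild type) among the Mycl groups. The plot of subunit means shows that both subunits moved together from array to array.

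**Figure D1:**
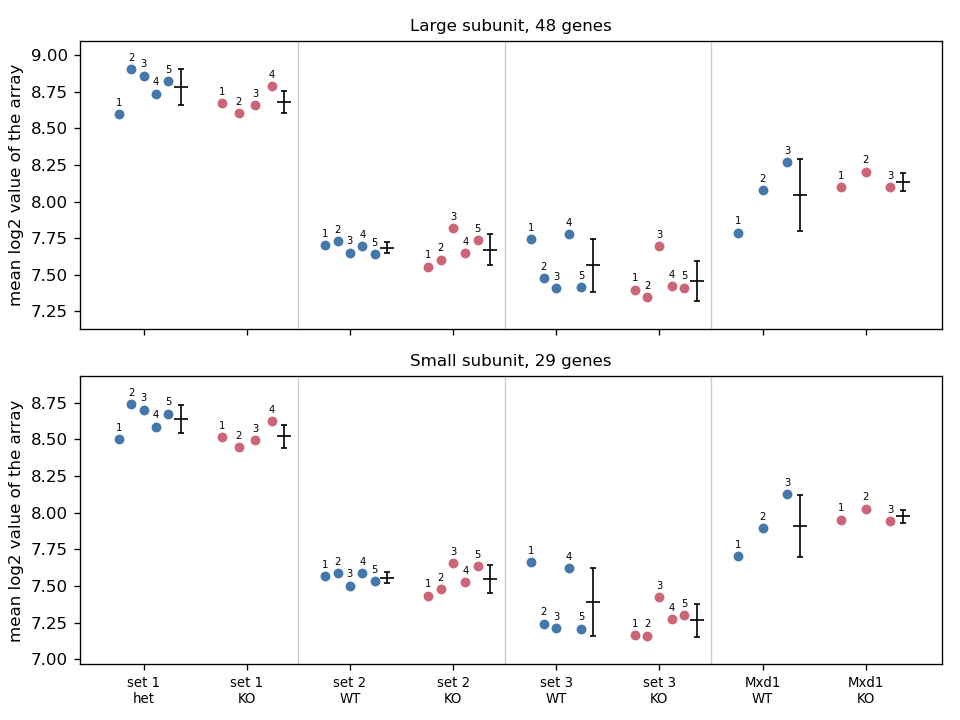
Mean log2 value of the 48 large subunit (top) and 29 small subunit genes (bottom) on each of 35 arrays, numbered by replicate, in blue for wild type or heterozygous (het) and red for knockout (KO); black bars give the group mean ± SD. In set 3 wild-type arrays 1 and 4 and knockout array 3 lie above the rest of their groups, and levels are not comparable between sets.

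At rest, the loss of the last intact Mycl allele (set 1) left no mitochondrial ribosomal protein gene past the threshold, but 73 of the 77 differences lay below 0. None passed an adjusted p of 0.05, where 0.0214% of the 14023 genes tested did so. At an unadjusted p under 0.05 there were 16, all lower (7 large and 9 small subunit genes), beside 8.45% of all genes tested lower by that measure. The count below 0 was 45 of 48 for the large and 28 of 29 for the small subunit, beside 48.7% of all genes. The median log2 difference was -0.09 for either subunit and 0.00 (0.0029) for all genes. All alternatives tried gave 0 calls in this set.

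The lowest large subunit values in set 1 were those of Mrpl47, Mrpl19 and Mrpl49. Mrpl47, which sits near the exit of the nascent chain, read 7.14, 7.48, 7.42, 7.16 and 7.51 in heterozygous arrays and 7.00, 6.75, 6.68 and 7.16 in knockout arrays. Knockout array 4 reached the lowest heterozygous arrays and held the same value as heterozygous array 4 (7.1629), so the groups overlapped. Such ties were frequent in set 1. The difference of Mrpl47 was -0.44 (SE 0.11, adjusted p 0.18), and its other cluster gave 0.02. That cluster reads low, with a mean of 5.07 over the 35 arrays against 6.40 for the cluster used. The filter on low values lay at 4.70 to 5.82 over the arrays. Mrpl19 differed by -0.21 (SE 0.07) and Mrpl49 by -0.20 (SE 0.07).

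Among small subunit genes the lowest were Mrps34, Mrps25 and Mrps28, at -0.29 (SE 0.09), -0.26 (SE 0.09) and -0.24 (SE 0.11). Mrps34, a protein with no bacterial counterpart, is one whose loss is known to destabilise the small subunit. Its values were 9.14, 9.46, 9.53, 9.18 and 9.31 in heterozygous arrays and 9.04, 9.02, 8.91 and 9.17 in knockout arrays. Only knockout array 4 entered the heterozygous range, and the adjusted p was 0.22. Mrps2, the counterpart of bacterial S2, was the 1 gene of the 77 whose groups did not overlap, with 8.24 to 8.40 in knockout and 8.41 to 8.54 in heterozygous arrays; 2.72% of all genes tested had every knockout array below every control. Its difference was -0.15 (SE 0.05, adjusted p 0.24).

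At the upper end of set 1 the differences were close to 0. Mrpl28 and Mrpl12, the latter a protein of the flexible stalk that recruits translation factors, were both at 0.03 (SE 0.06 and 0.05), and Mrpl32 was at 0.01. The highest small subunit genes were Mrps27 at 0.00 (0.0003), Mrps24 at -0.04 and Mrps5 at -0.05.

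These values in set 1 moved with single arrays. Heterozygous array 1 was the lowest of its group for 62 of 77 genes, a position it held for 26.6% of all genes tested. Knockout array 4 was the highest of its group for 62 of 77, beside 32.4% of all genes. Without heterozygous array 1 the median differences were -0.14 for both subunits, with 75 of 77 below 0, and without heterozygous array 2 they were -0.07 with 66 below 0.

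Against wild type at rest (set 2), 2 of the 77 genes fell and none rose. They were Mrpl17 and Mrps34, beside 2.36% of 14012 genes tested that fell and 3.78% that rose (6.14% in either direction), so the share that fell was near the background. The differences split to both sides of 0, with 44 of 77 below. The median was -0.04 for the large subunit, -0.01 for the small subunit and 0.01 (0.0078) for all genes. At an unadjusted p under 0.05 there were 11, 7 lower and 4 higher, beside 21.2% of all genes.

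Cell type markers also moved in set 2. Of 12 cDC1 markers 6 rose (Batf3, Flt3, Gcsam, Irf8, Tlr3 and Zbtb46, by 0.21 to 0.32) and Cd8a fell by 0.38. Of 8 monocyte and macrophage markers on the array 7 were tested: Cd14 fell by 1.42 (SE 0.10, adjusted p 1.72e-06), Spic fell by 0.58 and Cx3cr1 rose by 0.56. The mean of the 8 was 6.61 to 6.83 on knockout and 6.84 to 7.06 on wild-type arrays, so the groups did not overlap. Of 8 cDC2 markers 5 were tested, of which Cd209a rose by 1.37 (SE 0.25, adjusted p 0.0060) and Cd4 fell by 0.53. Their mean was 5.22 to 5.71 on knockout and 5.26 to 5.504 on wild-type arrays. Of 6 plasmacytoid dendritic cell markers Ccr9 rose by 0.43 and Tcf4 by 0.50, with means of 6.74 to 7.11 on knockout and 6.61 to 6.74 on wild-type arrays. Of 5 B cell markers 3 were tested and Ms4a1 fell by 0.58, with means of 4.80 to 4.99 on knockout and 4.91 to 5.03 on wild-type arrays. The part of these cells in the differences of set 2 was not tested.

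Mrpl17, the counterpart of bacterial L17, read 6.91, 6.94, 6.83, 6.85 and 6.90 in wild-type arrays and 6.68, 6.53, 6.66, 6.65 and 6.62 in knockout arrays of set 2. Every knockout array was below every wild-type array, as for 3.0% of all genes tested. It fell by 0.26 on the log2 scale (SE 0.05, limma adjusted p 0.011). Its call was kept without any 1 array and lost only when all 8 groups shared a fit (adjusted p 0.158).

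Mrps34 read 8.40, 8.47, 8.37, 8.44 and 8.35 in wild-type arrays and 7.99, 8.12, 8.23, 8.15 and 8.32 in knockout arrays of set 2. The groups again did not overlap, with knockout array 5 the nearest to wild type. It fell by 0.24 (SE 0.06, adjusted p 0.036). Without any 1 of wild-type arrays 1 to 4, or of knockout arrays 1, 2 and 4, the adjusted p was 0.057 to 0.090 (differences -0.20 to -0.25).

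**Figure D2:**
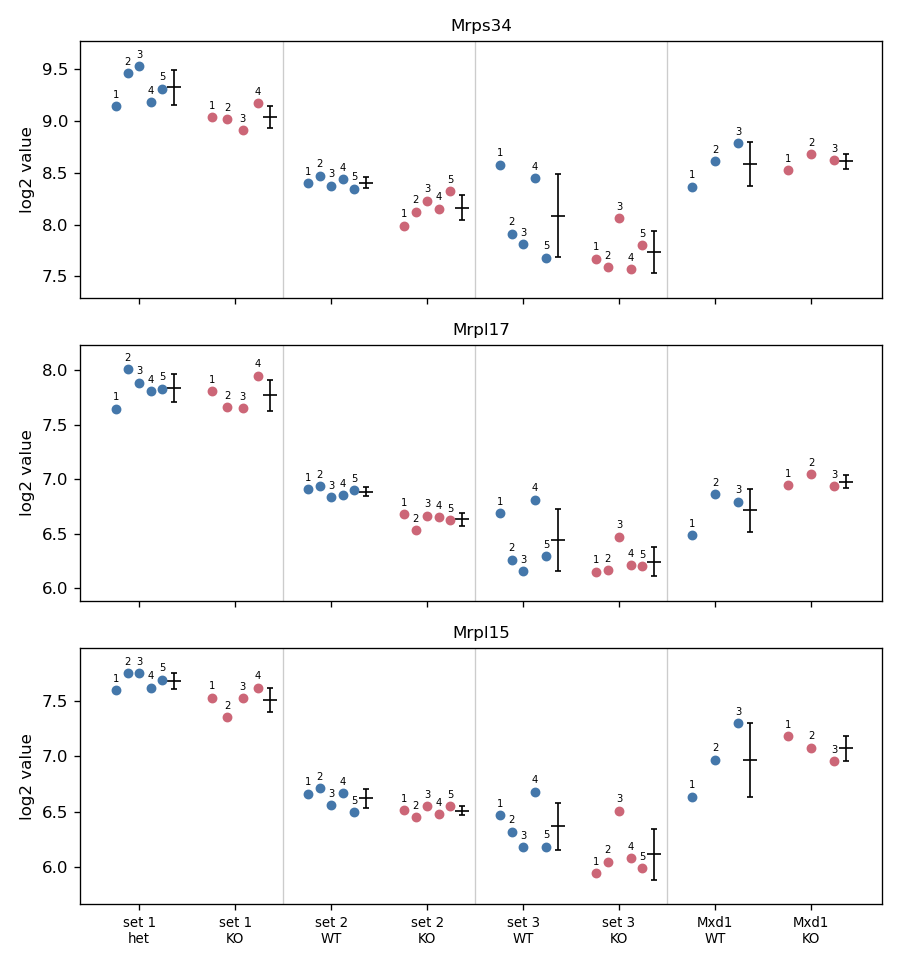
Log2 values of Mrps34, Mrpl17 and Mrpl15 on each of 35 arrays by group, numbered by replicate, with the group mean ± SD in black. In set 2 knockout arrays lie below all wild-type arrays for Mrps34 (7.99 to 8.32 against 8.35 to 8.47) and Mrpl17 (6.53 to 6.68 against 6.83 to 6.94), and levels are not comparable between sets.

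Other low values in set 2 were Mrpl57 at -0.17 (SE 0.07), Mrpl9 at -0.16 (SE 0.07), Mrps33 at -0.17 (SE 0.08) and Mrps23 at -0.14 (SE 0.05). The highest large subunit values were Mrpl55 at 0.21, Mrpl13 at 0.20 and Mrpl42 at 0.20, and the highest small subunit values were Mrps27 at 0.17, Mrps11 at 0.16 and Mrps28 at 0.15. None of these passed the threshold.

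Mrpl55, a protein found only in mitochondria, read 8.19 to 8.26 in wild-type and 8.30 to 8.64 in knockout arrays of set 2. It was the 1 gene with every knockout array above every wild-type array, beside 3.74% of all genes tested, and its adjusted p was 0.082 (difference 0.21, SE 0.07). Mrpl13, the counterpart of bacterial L13, had knockout values of 8.20, 8.31, 8.41, 8.39 and 8.52 and wild-type values of 8.07 to 8.22 (SE 0.06, adjusted p 0.072). It passed the threshold without knockout array 1, at 0.25 (adjusted p 0.028), and with array weights, at 0.23 (adjusted p 0.026). Mrpl42 had the widest spread, an SD of 0.42 over knockout arrays, with array 3 at 9.87 and the others at 8.85 to 9.31. Without knockout array 3 its difference was 0.04 (0.0367) in place of 0.20.

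Knockout array 3 was the highest of its group for 45 of 77 genes in set 2, beside 21.7% of all genes. Without it 53 of 77 differences were below 0, and without knockout array 1 there were 35.

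A joint fit of both resting sets, blocked by set, gave 2 of 77 genes that fell and none that rose: Mrps34 fell by 0.26 (SE 0.05, adjusted p 0.0052) and Mrpl15 fell by 0.14 (SE 0.04, adjusted p 0.046). The background was 2.43% of 14639 genes that fell and 2.01% that rose (4.43% in either direction). Mrps34 passed without any 1 array and under all alternatives but the fit of all 8 groups (adjusted p 0.18). Mrpl15, the counterpart of bacterial L15, read 7.59, 7.75, 7.75, 7.61 and 7.69 in heterozygous and 7.53, 7.35, 7.52 and 7.61 in knockout arrays of set 1. In set 2 it read 6.66, 6.71, 6.56, 6.67 and 6.50 in wild-type and 6.52, 6.45, 6.55, 6.48 and 6.55 in knockout arrays, so the groups overlapped in both sets. Its call was lost in most alternatives, among them leaving out knockout array 2 of set 1 (adjusted p 0.094). Mrpl17 was at -0.17 (SE 0.05, adjusted p 0.054). In the joint fit 63 of 77 differences were below 0, with medians of -0.06 and -0.04 for the large and small subunit and 0.01 (0.0072) for all genes.

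Markers moved in the joint fit too. Of 12 cDC1 markers 6 rose (Batf3, Flt3, Gcsam, Irf8, Tlr3 and Xcr1, by 0.15 to 0.27) and none fell. Of 7 monocyte and macrophage markers tested Cd14 fell by 0.74 (SE 0.18, adjusted p 0.017) and Vcam1 rose by 0.28. Of 5 cDC2 markers Cd4 fell by 0.38, of 6 plasmacytoid dendritic cell markers Ccr9 rose by 0.30, and of 3 B cell markers Ms4a1 fell by 0.63 (SE 0.09, adjusted p 0.00020). In set 1 alone none of these lists had a called gene, where 0.0214% of all genes tested were called. The cDC1 marker mean was 10.92 to 11.04 on knockout and 10.67 to 10.89 on heterozygous arrays, so the groups did not overlap. Of the 12 markers 11 were above 0 and 7 were higher at an unadjusted p under 0.05, beside 806 of 14023 genes. Ms4a1 was at -0.70 (SE 0.14, adjusted p 0.11), with every knockout array below every control, as for 2.72% of all genes. The mean of the monocyte and macrophage markers was 7.83 to 8.02 on knockout and 7.83 to 7.995 on heterozygous arrays. The part of these cells in the differences of set 1 and of the joint fit was not tested.

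The difference between the sets was tested directly. No mitochondrial ribosomal protein gene had a knockout difference in set 1 that departed from that in set 2 at an adjusted p of 0.05, beside 1.01% of all genes (12 at an unadjusted p under 0.05, where 16.2% of all genes were). The lowest adjusted p values were those of Mrps22 (-0.32, SE 0.09, adjusted p 0.097) and Mrpl47 (-0.42, SE 0.13, adjusted p 0.098). Controls differ between these sets by 1 Mycl allele as well as by normalization.

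**Figure D3:**
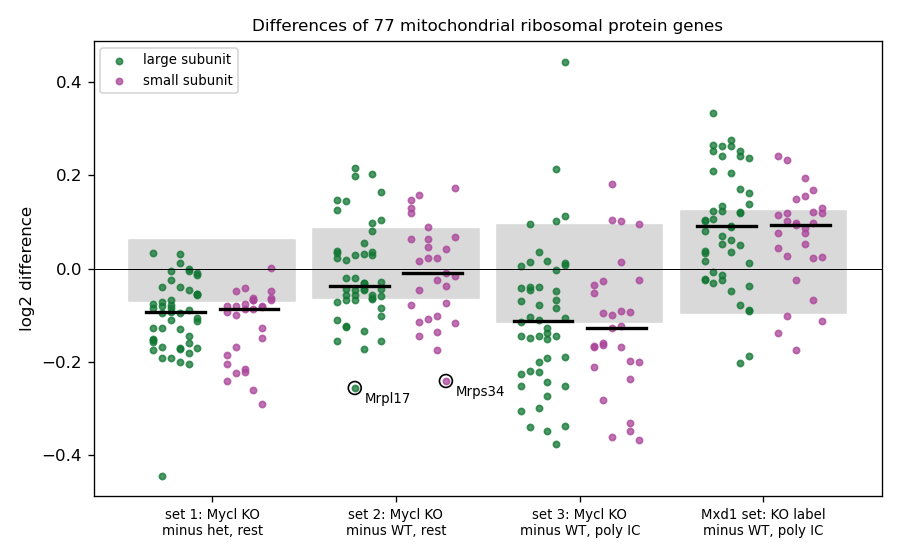
Log2 difference, knockout minus control, of each of 77 genes in the 4 sets, large subunit in green and small subunit in purple, with black lines at the subunit medians and grey bands from the lower to the upper quartile of all genes tested. Circled genes passed the adjusted threshold within their set. In set 1 most points (73 of 77) lie below 0 and in the Mxd1 set most (58 of 77) lie above.

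After 5 h of poly IC (set 3), no mitochondrial ribosomal protein gene passed the threshold, nor did any of the 14033 genes tested (0.0%). At an unadjusted p under 0.05 there were 5, 3 lower and 2 higher, beside 14.2% of all genes. Of the 77 differences 61 were below 0, with medians of -0.11 and -0.13 for the large and small subunit and 0.00 (-0.0012) for all genes. These medians rested on the arrays that stood apart. Without wild-type arrays 1 and 4 they were 0.04 and 0.04 with 25 of 77 below 0, and without those and knockout array 3 they were -0.04 and 0.00 (0.0008) with 43 below 0. Without knockout array 3 alone they were -0.16 and -0.20, without wild-type array 1 alone -0.05 and -0.06, and without wild-type array 4 alone -0.06 and -0.06. No member was called under any of these. A fit of all 8 groups, which takes the spread from every set, called 4 members in set 3 beside 13.6% of all genes. Mrpl14 was higher in knockout arrays (0.44, adjusted p 0.010), and Mrpl2 (-0.34, adjusted p 0.041), Mrpl49 (-0.27, adjusted p 0.016) and Mrps35 (-0.37, adjusted p 0.030) were lower.

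The wild-type arrays with low interferon genes had the higher mitochondrial ribosomal protein values. The large subunit mean was 7.74 and 7.78 on wild-type arrays 1 and 4 and 7.41 to 7.48 on the other 3, and the small subunit mean was 7.66 and 7.62 against 7.21 to 7.24. Both arrays lay above the other 3 for 58 of 77 genes, as they did for 33.0% of all genes tested. Knockout array 3, with an interferon mean of 10.78, was the highest knockout array for 63 of 77 genes, beside 25.9% of all genes, and its large subunit mean was 7.70 against 7.35 to 7.42. These arrays belong to 1 group by label, so their contrast is a description and no test was run on it.

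**Figure D4:**
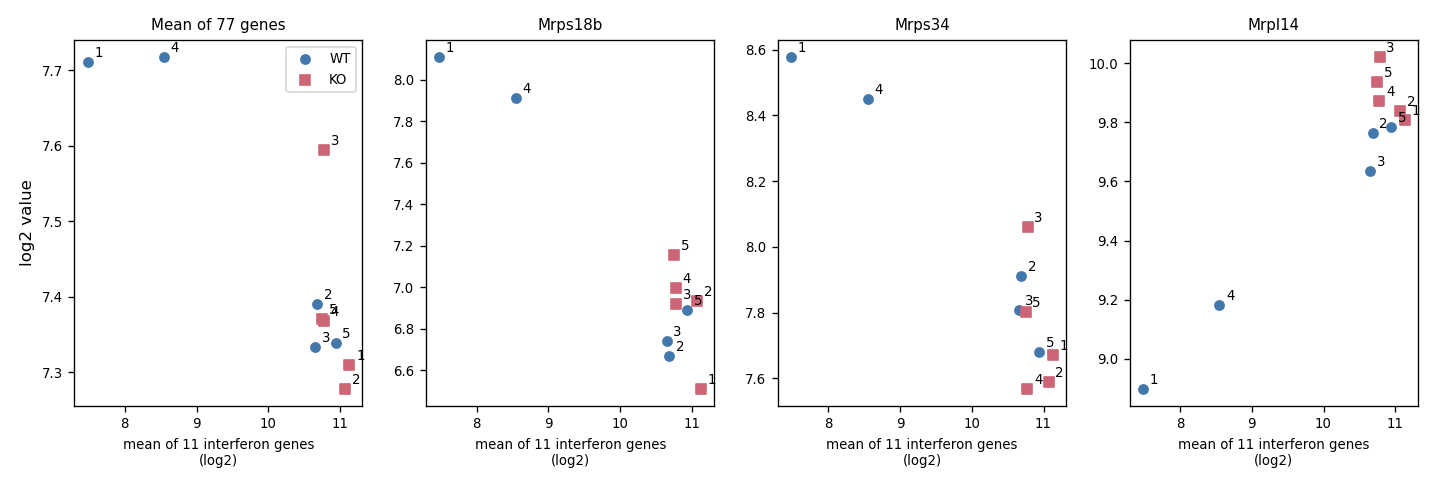
Set 3, 5 h after poly IC: mean log2 value of the 77 genes and log2 values of Mrps18b, Mrps34 and Mrpl14 (vertical axes, each to its own scale) against the mean of 11 interferon-induced genes (horizontal axis), 1 point per array, wild type as circles and knockout as squares. Wild-type arrays 1 and 4 lie apart at interferon means of 7.48 and 8.55, high for Mrps18b and Mrps34 and low for Mrpl14.

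Mrps18b, 1 of 3 mitochondrial proteins related to bacterial S18, had the widest spread, an SD of 0.69 over wild-type arrays of set 3. It read 8.11, 6.67, 6.74, 7.91 and 6.89 in wild-type and 6.51, 6.93, 6.92, 7.00 and 7.15 in knockout arrays. Wild-type arrays 1 and 4 were above every other array of the set. The difference was -0.36 (SE 0.28, adjusted p 0.53) with all arrays, -0.37 without knockout array 3 and 0.13 (adjusted p 0.78) without the 3 arrays that stood apart. Its relative Mrps18c read 9.21 on wild-type array 1 and 9.43 to 9.49 on the other wild-type arrays, lower rather than higher on that array.

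Mrps34 read 8.58, 7.91, 7.81, 8.45 and 7.68 in wild-type and 7.67, 7.59, 8.06, 7.57 and 7.80 in knockout arrays of set 3. Its difference was -0.35 (SE 0.18, adjusted p 0.38), -0.43 without knockout array 3 and -0.14 (adjusted p 0.60) without the 3 arrays. Mrps35 differed by -0.37 (SE 0.14), and the lowest large subunit genes were Mrpl50 at -0.38 (SE 0.20), Mrpl18 at -0.35 (SE 0.17) and Mrpl41 at -0.34 (SE 0.20). Without the 3 arrays these 4 were at -0.14, -0.19, -0.20 and -0.12, and without knockout array 3 alone at -0.39, -0.48, -0.45 and -0.44. The other cluster of Mrpl41, with a mean of 6.88 over the 35 arrays, gave -0.12 with all arrays of set 3.

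Mrpl14, a large subunit protein at the face that meets the small subunit, read 8.90, 9.76, 9.63, 9.18 and 9.78 in wild-type and 9.81, 9.84, 10.02, 9.87 and 9.94 in knockout arrays. Wild-type arrays 1 and 4, high for most members, were the lowest here, and every knockout array was above every wild-type array, as for 1.91% of all genes tested. The difference was 0.44 (SE 0.16, adjusted p 0.30) with all arrays, 0.41 without knockout array 3 and 0.14 (adjusted p 0.55) without the 3 arrays.

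Other members at the upper end of set 3 were Mrpl13 at 0.21 (SE 0.08), Mrps6 at 0.18 (SE 0.09), Mrpl27 at 0.11 (SE 0.11), Mrps12 at 0.10 (SE 0.11) and Mrps18c at 0.10 (SE 0.11). Mrpl27 and Mrps18c were at 0.01 and 0.00 (0.0003) without knockout array 3, which read 9.24 and 9.91 for them, and Mrpl13, Mrps6 and Mrps12 were then at 0.16, 0.24 and 0.06. Without the 3 arrays Mrpl13 was at 0.09, Mrps6 at 0.17, Mrps12 at 0.17, Mrpl27 at -0.05 (-0.0506) and Mrps18c at -0.05 (-0.0517). The other cluster of Mrpl27 gave 0.21 with all arrays of set 3. Mrps12, the counterpart of the bacterial decoding-site protein S12, read 8.38 to 8.83 in wild-type and 8.29 to 8.80 in knockout arrays. The knockout difference in set 3 did not depart from that in set 2 for any member at an adjusted p of 0.05 (0.0205% of all genes did; 4 members and 13.0% of all genes at an unadjusted p under 0.05). The lowest adjusted p was that of Mrpl49 (0.25).

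In the Mxd1 set, 18 h after poly IC, no mitochondrial ribosomal protein gene passed the threshold, beside 0.071% of 14080 genes tested. At an unadjusted p under 0.05 there were 4, all higher in arrays labelled knockout, beside 9.51% of all genes. Of the 77 differences 58 were above 0, and the median was 0.09 for either subunit and 0.00 (-0.0023) for all genes. The wild-type arrays spread widely. Their large subunit means were 7.79, 8.08 and 8.27, and the arrays labelled knockout, at 8.10, 8.20 and 8.10, lay between the upper 2 of them. Of 7 monocyte and macrophage markers tested Spic was lower in arrays labelled knockout by 1.14 (SE 0.11, adjusted p 0.020). No other marker was called. The cDC1 marker mean was 10.34 to 10.37 on these arrays and 10.04 to 10.31 on wild-type arrays. The cDC2 mean was 5.36 to 5.395 against 5.46 to 5.52. The plasmacytoid dendritic cell and T and NK cell means were also lower without overlap, and the other list means overlapped. The part of these cells in the differences was not tested.

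Wild-type array 1 was the lowest wild-type array for 64 of 77 genes (35% of all genes) and array 3 the highest for 60 (33.8%). Without array 1 the medians were -0.05 and -0.02 with 25 of 77 above 0, and without array 3 they were 0.25 and 0.17 with 70 above 0. Myc itself, the MYC-family founder, read 6.36, 7.33 and 7.83 on wild-type arrays 1 to 3 and 6.75, 7.23 and 6.79 on arrays labelled knockout.

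Mrpl3, the counterpart of bacterial L3 near the peptide-bond site, was highest at 0.33 (SE 0.15, adjusted p 0.33), with 7.90, 8.37 and 7.71 in wild-type and 8.30, 8.31 and 8.36 in arrays labelled knockout. Wild-type array 2 was level with the knockout arrays, and without it the difference was 0.52 (adjusted p 0.039). Without wild-type array 3, the lowest, it was 0.19 (adjusted p 0.44). Mrpl18 was at 0.28 (SE 0.10), Mrpl47 at 0.27 (SE 0.12), Mrps28 at 0.24 (SE 0.22), Mrps5 at 0.23 (SE 0.12) and Mrps33 at 0.19 (SE 0.20). The other cluster of Mrpl47, which reads low, gave -0.005 here. The other cluster of Mrps5 gave -0.03 (-0.0256) and that of Mrps33 gave 0.15. The groups did not overlap for 6 genes with the knockout label above (Mrpl12, Mrpl17, Mrpl18, Mrpl19, Mrpl47 and Mrpl49), beside 11.8% of all genes, and for 1 with it below (Mrpl13), beside 10.8%. Mrpl17, which fell in Mycl knockout arrays of set 2, read 6.49, 6.86 and 6.79 in wild-type and 6.94, 7.05 and 6.94 in arrays labelled Mxd1 knockout (0.26, SE 0.11, adjusted p 0.29). The lowest values were Mrpl13 at -0.20 (SE 0.09), Mrpl9 at -0.19 (SE 0.11), Mrps24 at -0.18 (SE 0.11), Mrps36 at -0.14 (SE 0.24), Mrps21 at -0.11 (SE 0.19) and Mrpl14 at -0.09 (SE 0.08).

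Across the 3 Mycl sets, which share no arrays, 36 of 77 genes had differences below 0 in each set (23 large and 13 small subunit genes), beside 17.6% of 13176 genes tested in all 3. None was above 0 in each set, beside 18.0% of all genes. These counts moved with the arrays of set 3 that stood apart. Without wild-type arrays 1 and 4 there, 18 of 77 were below 0 in each set (23.4%, beside 15.1% of all genes) and 2 above. Without those and knockout array 3, 29 were below (37.7%, beside 16.6%) and 2 above. Without knockout array 3 alone, 38 were below (49.4%, beside 18.1%) and 0 above. Over the 77 genes the differences correlated at r = 0.10 between sets 1 and 2, 0.27 between sets 1 and 3 and 0.26 between sets 2 and 3, where all genes gave 0.20, 0.38 and 0.32. Without the 2 wild-type arrays the members gave 0.09 between sets 1 and 3 and 0.40 between sets 2 and 3. Without knockout array 3 alone the members gave 0.29 and 0.29 in the same order. Genes are not independent replicates, and members share array-wide shifts within a set. Mrps34 was at -0.29, -0.24 and -0.35 in sets 1 to 3 and at 0.02 (SE 0.11) in the Mxd1 set; its value in set 3 was -0.14 without the 3 arrays and -0.06 without the 2 wild-type arrays. Mrpl13 was at -0.16, 0.20 and 0.21 in sets 1 to 3 and -0.20 in the Mxd1 set.

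The genes were also divided by symbol, as a stand-in for descent. Symbols up to Mrpl36 and Mrps21, with Mrpl47, Mrps24 and Mrps28, were taken to have a bacterial counterpart. For the 47 genes so taken the median log2 difference was -0.08 in set 1, -0.01 in set 2, -0.10 in set 3 and 0.09 in the Mxd1 set. For the other 30, which include Mrps36, it was -0.11, -0.05, -0.16 and 0.10. All genes tested gave 0.0029, 0.0078, -0.0012 and -0.0023. Both subunit medians changed sign without wild-type arrays 1 and 4 in set 3, and without wild-type array 1 in the Mxd1 set. The medians of the 47 and the 30 were not computed without those arrays. In both resting sets together the medians were -0.04 and -0.08, each with 1 gene that fell (Mrpl15 and Mrps34), beside 2.43% of all genes.

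Other genes of mitochondrial translation were read from lists. The mitochondrially encoded messages themselves were not analysed here. Of all genes tested, 2.43% fell and 2.01% rose in the joint fit of the resting sets. In set 2 these shares were 2.36% and 3.78%. No list was tested against these shares. Of 5 mitochondrial ribosome proteins with other symbols, 1 fell in the joint fit of the resting sets: Ptcd3, a pentatricopeptide repeat protein of the small subunit, by 0.17 (SE 0.05, adjusted p 0.039). Of 27 ribosome assembly and rRNA modification genes none passed in the joint fit, where the median was -0.01. In set 2, where 26 were tested, 1 rose: Gtpbp10, a GTPase of large subunit assembly, by 0.38 (SE 0.09, adjusted p 0.018). Set 1 did not share this rise: the knockout difference of Gtpbp10 there was lower than in set 2 by 0.54 (SE 0.13, adjusted p 0.047). In the joint fit Gtpbp10 was at 0.13 (SE 0.09, adjusted p 0.44). Of 15 translation factors 2 fell in the joint fit: Mrrf, the ribosome recycling factor, by 0.30 (SE 0.08, adjusted p 0.032), and Mtfmt, which formylates the initiator tRNA, by 0.22 (SE 0.05, adjusted p 0.011). Of 21 aminoacyl-tRNA synthetase genes Mars2, which charges mitochondrial tRNA with methionine, fell by 0.22 (SE 0.06, adjusted p 0.037).

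Of 9 genes of mitochondrial transcription and DNA upkeep, Tfb2m, a factor that opens mitochondrial promoters, fell by 0.23 (SE 0.06, adjusted p 0.028) in the joint fit. Of 48 respiratory chain and ATP synthase subunits 3 fell (Atp5d, Atp5e and Ndufa10) and none rose, and 44 were below 0 with a median of -0.06. Of all genes tested in the joint fit 2.43% fell and 46.0% were below 0, with a median of 0.01 (0.0072). Of 57 genes taken by symbols of cytosolic ribosomal proteins 12 fell and none rose in the joint fit, with 55 below 0 and a median of -0.09. The symbol rule also took in like-named genes such as Rpl7l1, which is among the 12, and Rps4l. In set 2 alone 4 of the 57 fell, 56 were below 0 and the median was -0.13, below the -0.04 and -0.01 of the large and small mitochondrial subunits. Of all genes tested in set 2, 2.36% fell and 47.1% were below 0. Myc rose in set 2 by 1.18 (SE 0.11, adjusted p 7.85e-05) and was at -0.01 (SE 0.13) in set 1. The part of Myc in these differences was not tested.

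Mrps15, Mrpl37, Mrpl50 and Mrpl20 lie on chromosome 4 with Mycl. The nearest, Mrps15, is 37 genes away and differed by -0.08 (SE 0.08) in set 1 and 0.04 (SE 0.08) in set 2. The called members Mrps34, Mrpl17 and Mrpl15 are not among them.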

How the data were processed

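The deposited values are log2 intensities that the authors made with RMA in Affymetrix Expression Console, per the submitters' processing notes; no version was given. The table holds 35556 transcript clusters on 35 arrays. Of these, 21789 carry 1 gene symbol, 1621 several and 12146 are not listed in the platform annotation; the cluster with the highest mean stood for each of 19938 genes. Values tied across arrays and array medians differ by set, so each set was fitted alone with limma 3.58.1 (lmFit and eBayes, R 4.3.3), and p-values were adjusted by Benjamini-Hochberg over every gene in the fit, at a threshold of 0.05. A pair of arrays held equal values for a mean of 1987 clusters in set 1. The mean was 14.7 in set 2, 13.6 in set 3, 30.8 in the Mxd1 set and 0.2 between sets. The bearing of these ties on spread and overlap in set 1 was not tested. A gene entered a fit when its value exceeded the array's 30th percentile in a number of arrays equal to the smaller group's size or more. The joint fit of sets 1 and 2 had the set as a block. Spike-ins added per cell, named in the series text, were not used here. The number of arrays limits the precision.

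The named genes were the members called in any fit, the 3 highest and 3 lowest per subunit and set, those not overlapping between groups, and called genes of the partner lists; members picked by level were left out, since probe levels are not comparable between genes. Mrps2, Mrpl55 and other members without a call whose groups did not overlap were chosen after their values were seen. Members and lists were chosen with earlier results of these data known. The fits were tested on simulated data, with the moved genes drawn from all genes tested in each set. Of genes given a log2 change of 0.5, 93.6% of 94 were recovered in set 1 and 92.2% of 103 in set 2. Recovery was 54.9% of 91 in set 3 and 47.4% of 97 in the Mxd1 set. False calls among unmoved genes numbered 11, 17, 7 and 6. Changes smaller than 0.5, as all member differences were in the main fits, were not simulated. The noise was drawn for each gene alone, without shifts shared by genes. Recovery at the size of the member differences is therefore not known. Alternatives were no filter, the mean of a gene's clusters, quantile normalization, array weights, a trended robust prior, 1 fit of all 8 groups, the replicate number as a block, and leaving out arrays. Leaving out 2 or 3 arrays of set 3 was added after seeing the data. Promoters are RefSeq's on GRCm38.p6; motifs were searched on both strands.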

Additional observations from a re-analysis of the deposited data

Results flagged for a closer look

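In set 3, replicate 1 of the wild-type group lay far below the other 4 wild-type arrays for Mrpl27 (8.51; the gap to its neighbour was 0.754 of the group's range), Mrps18c (9.21; 0.778) and Mrps6 (7.28; 0.735). Knockout replicate 3 of set 3, whose Mycl value was 8.87, lay far above the other 4 for Mrps18c (9.91; 0.829) and for the mean of the large subunit genes (7.70; 0.783). In all, 84 groups were examined in this way and 5 stood out, where chance gives about 1 in 20. Mrpl17 differed by -0.26 in the Mycl knockout of set 2 and by 0.263 in arrays labelled Mxd1 knockout, with no overlap of the groups in either set; the difference between these effects was not tested.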

How the results depend on the processing

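No member was called in set 1 under any alternative. In set 2 the 2 calls became 0 with all 8 groups in 1 fit, 1 with the replicate block (Mrpl17), 3 with array weights (Mrpl13, Mrpl17 and Mrps34) and 1 to 2 without single arrays. Without knockout array 1 the 2 were Mrpl13 and Mrpl17, and Mrps34 was lost (adjusted p 0.063). In set 3 the fit of all 8 groups called 4 members; leaving out single arrays called 0. In the Mxd1 set leaving out single arrays called 0 to 1. In the joint fit of the resting sets the 2 calls became 1 (Mrps34) without the filter, with quantile normalization, with the trended robust prior and with the replicate block, 0 with all 8 groups, 4 with array weights and 1 to 5 without single arrays (4 without heterozygous array 1 and 5 without knockout array 4 of set 1). Between sets 1 and 2, array weights gave 1 call and leaving out single arrays 0 to 1. Same-numbered arrays did not deviate together throughout (correlations of -0.40 to 0.35), so the numbers were not taken as pairs; the block changed no other call.

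Some differences changed sign. In set 1 these were Mrpl28 with array weights (-0.0086), Mrps5 with quantile normalization (0.0027) and Mrps27 with the replicate block (-0.0341). In set 3 Mrps18b was at 0.0651 with array weights, 0.13 without 3 arrays and 0.14 without 2 wild-type arrays, and without 3 arrays Mrpl27 was at -0.0506 and Mrps18c at -0.0517. Without single arrays Mrpl28 ranged from -0.008 to 0.057, Mrps27 from -0.0397 to 0.0462 and Mrpl32 from -0.0643 to 0.0574 in set 1. In the Mxd1 set Mrps28 ranged from -0.044 to 0.454, Mrps33 from -0.0494 to 0.425, Mrps21 from -0.29 to 0.13 and Mrps36 from -0.32 to 0.19. The cause was not tested.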
